A study of Oryza sativa with 24 samples.

Results

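The data describe 149 probe sets of a rice array whose signal was low in the arrays labelled trans-zeatin (tZ) and high in the arrays labelled dimethylsulfoxide (DMSO), in root and in leaf alike. Of 57194 probe sets, 154 passed a rule of 2 conditions that had to hold in each organ. The DMSO mean of signal + 20 over both times was at least 3 times the tZ mean, and the highest tZ array lay below the lowest DMSO array. Root tZ 120 min replicate 2 was left out of the rule. Of the 154, 5 probe sets named for DREB1 or TIFY genes (DREB1B, DREB1E, DREB1G, TIFY11A and TIFY11E) passed the numbers and were set aside by name, which left 149, and no WRKY or AOS name was among them. The rule in root alone took 664 probe sets (1.16%), in leaf alone 689 (1.2%), and both together 0.269%.

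The study used the rice cultivar Nipponbare (Oryza sativa L.), with no mutation or transgene named in the labels, and cut organs from seedlings of 2 weeks grown on water. Whole roots, or the third leaf cut at the lamina joint, were kept at 30 °C for 120 or 30 min in water with 5 µM tZ and 0.1% DMSO, or with 0.1% DMSO alone. In each organ the groups were tZ 120 min, tZ 30 min, DMSO 120 min and DMSO 30 min, with 3 arrays each and 24 arrays in all. All groups share the cutting, the DMSO, the transfer into liquid and the incubation, and no uncut organ was analysed here. The labels do not say whether replicates came from separate plants or cultures, so the p-values measure the spread between these samples, which may be technical. In whole organs, fewer cells of a type and less RNA per cell cannot be told apart.

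Trans-zeatin is an active cytokinin, and plant cells sense it through histidine kinases that pass phosphate to response regulators. Type-A response regulators are induced by cytokinin and damp the signal. Cutting, touch and cold, on the other hand, open calcium channels, and calmodulin-like proteins, calcium-dependent kinases and MAP kinases relay that signal to DREB1, bHLH and MYB transcription factors and to jasmonate synthesis. Transcripts of such relays are known to appear and to fade quickly.

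The organ labels fit the markers. OsCASP1, a protein of the root Casparian strip, averaged 15.9 ± 0.551 in leaf DMSO 30 min arrays and 2227 ± 152 in root DMSO 30 min arrays (SD, n = 3 each). OsGLK2, a leaf chloroplast regulator, averaged 7845 ± 228 in leaf DMSO 120 min arrays and 8.30 ± 1.85 in root DMSO 120 min arrays (SD, n = 3 each). The leaf marker CAB2R was less distinct, being higher in leaf but also bright in root. It averaged 24276 ± 832 in leaf and 9713 ± 738 in root DMSO 30 min arrays (SD, n = 3 each). Root values of the other leaf markers are given below. The tissue field of the labels gives root for all 24 samples, and the titles, which give leaf for 12, were followed.

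The treatment labels were less clear. Each of 5 type-A regulators (OsRR9, OsRR6, OsRR4, OsRR2 and OsRR1) was higher on every DMSO 120 min array than on any tZ 30 min array, in root and in leaf. OsRR9 in leaf averaged 12423 ± 523 with tZ 120 min, 989.8 ± 48.6 with tZ 30 min, 12760.0 ± 782 with DMSO 120 min and 3104 ± 116 with DMSO 30 min (SD, n = 3 each). Within a time, the tZ mean was above the DMSO mean for 12 of 20 comparisons, which were 2 of 5 genes at 120 min and 4 of 5 at 30 min in root, and 4 of 5 at 120 min and 2 of 5 at 30 min in leaf. OsRR4 in root at 30 min averaged 2340.3 ± 213 with tZ and 629 ± 30.3 with DMSO, and OsRR6 in leaf at 120 min 9758 ± 220.2 with tZ and 3899 ± 95.7 with DMSO (SD, n = 3 each), the way the labels say. These genes thus went with their labels in some comparisons and against them in others. Between times, the 120 min mean was above the 30 min mean for each of the 5 genes, with tZ and with DMSO, in both organs. Were the labels tZ 30 min and DMSO 120 min exchanged, these would be comparisons of tZ with DMSO within a time, each with the higher mean in tZ. The contrast behind the rule would then be one of 120 min with 30 min. That exchange was not tested. Every group is therefore called here by its label, and "tZ" and "DMSO" below mean arrays so labelled. One array also stood apart. Root tZ 120 min replicate 2 had a median signal over the 149 probe sets of 990.1, against 337.7 and 332.4 in the other tZ 120 min root arrays.

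The gap between tZ and DMSO arrays was wide, and it concerned bright transcripts. The tZ mean ranged from 2.95% to 32.9% of the DMSO mean in root, with a median of 22.8%. In leaf the range was 1.63% to 32.9% and the median 19.7%. It was at or below 10% for 14 probe sets in root, 32 in leaf and 10 in both. The median mean signal was 303 in tZ against 1841 in DMSO root arrays, and 335 in tZ against 2355 in DMSO leaf arrays. In DMSO arrays this median lay at the 90.2 percentile of all probe sets in root and the 91.7 percentile in leaf. These values chose the probe sets and are a description, with no test.

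**Figure D1:**
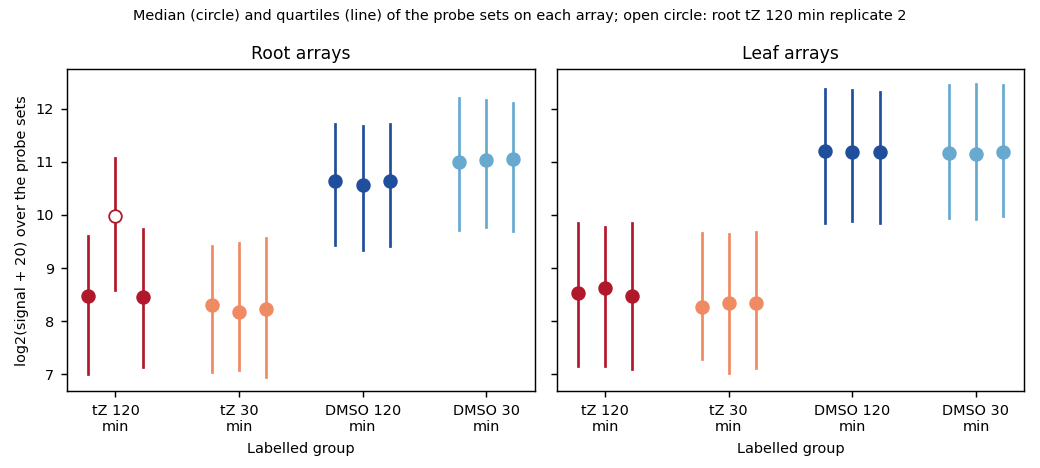
Median (circle) and quartiles (line) of log2(signal + 20) over the 149 probe sets on each array, by labelled group, for root (left) and leaf (right). The medians of the tZ arrays lie near 8 to 9 and those of the DMSO arrays near 11, and the open circle, root tZ 120 min replicate 2, lies between them at 9.98.

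The edge of the rule was not a gap in the data. Just inside it, a gene with the locus number LOC4332584 stood at 32.9% in root and 7.22% in leaf, and LOC9271214 at 26.4% in root and 32.9% in leaf. Just outside, LOC4342404 stood at 30.0% in root and 33.3% in leaf. A probe set of LOC4333106 stood at 33.5% in root and 27.5% in leaf, while another probe set of that gene is among the 149.

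Among the 149 probe sets, 105 are tied to exactly 1 gene and 44 to none in the array annotation. The 105 stand for 101 genes, each protein coding in RefSeq (assembly ASM3414082v1), and 17 of these genes carry a symbol rather than only a locus or clone ID. Gene IDs beside the symbols below are those of RefSeq. The suffix of 37 probe sets carries an s, x or a. An s or x marks probes that can bind transcripts of more than 1 gene, and an a marks probes shared by transcripts of 1 gene. The probe sets of OsNPR3, OsTPP7 and RCABP69 carry an s or x, and that of OsERG1 an a. The named genes are given by their known roles, first CML10, CML20, OsCPK4, OsERG1, MPK7 and OsPP2C15, which act in calcium binding, phosphorylation or dephosphorylation.

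CML10 (LOC4325762), a calmodulin-like calcium sensor, had the smallest root share of the 17 named genes. Its root signal was 234 and 219 with tZ 120 min and 222, 205 and 203 with tZ 30 min, against 5769, 7076 and 8303 as the lowest, median and highest of 6 DMSO arrays. This is 3.30% of DMSO in root, and in leaf it stood at 18.6%, with 1593 to 1822 in tZ and 8655 to 9527 in DMSO arrays. The groups were far apart in both organs, and the tZ level in leaf was well above that in root.

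CML20 (LOC4330639), a second calmodulin-like protein, was dimmer, at 16.3 to 157 in tZ against 314 to 515 in DMSO root arrays. In leaf it gave 203 to 334 in tZ against 1197 to 1487 in DMSO arrays, or 20.8% of DMSO. OsCPK4 (LOC4328155), a calcium-dependent protein kinase, stood at 29.9% in root and 17.7% in leaf. It kept a sizeable signal with tZ, 2513 to 3039 on root arrays and 1641 to 2435 on leaf arrays.

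OsERG1 (LOC4327497) encodes a small C2-domain protein that binds calcium and phospholipids and is known from the response to fungal elicitors. It gave 1431 to 1895 in tZ against 3857 to 6758 in DMSO root arrays, and 595 to 822 in tZ against 2496 to 3104 in DMSO leaf arrays. MPK7 (LOC4339633), a mitogen-activated protein kinase, stood at 19.9% in root and 30.1% in leaf. OsPP2C15 (LOC4329716), a type 2C protein phosphatase, stood at 24.3% in root and 30.3% in leaf.

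Hormone and transcription genes form the next group. OsbHLH148 (LOC4334060), a bHLH factor of jasmonate and drought responses, gave 746 to 1461 in tZ against 6449 to 9234 in DMSO root arrays. It gave 1432 to 1907 in tZ against 8082 to 8683 in DMSO leaf arrays, so both organs had a like level in DMSO arrays. OsOPR4 (LOC4340486), of the 12-oxophytodienoate reductase family, some members of which act in jasmonate synthesis, stood at 32.5% in root and 17.3% in leaf. OsMYB2 (LOC4332651), a MYB factor of stress responses, stood at 21.4% in root and 31.4% in leaf.

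OsNPR3 (LOC4333666) is related to the Arabidopsis NPR proteins that sense salicylic acid. It had the smallest leaf share of the 17, 7.92%, with 391 to 452 in tZ against 4576 to 6173 in DMSO leaf arrays. In root it was dimmer, with 149 to 199.9 in tZ against 493 to 841 in DMSO arrays. OsEIL1 (LOC4332697), an EIN3-like factor of ethylene signalling, stood at 26.6% in root and 32.4% in leaf, close to the limit of the rule in leaf.

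Sugar and cell wall genes complete the names, together with ADI1 and RCABP69. OsTPP7 (LOC4346885), a trehalose-6-phosphate phosphatase known from germination under low oxygen, gave 919 to 1186 in tZ against 8232 to 12963 in DMSO root arrays. It stood at 10.0% in root and 24.4% in leaf. For the cell wall, OsCesA5 (LOC4334710), a cellulose synthase subunit, stood at 30.3% in root and 16.3% in leaf. OsTBL11 (LOC4339070), a xylan O-acetyltransferase of the trichome birefringence-like family, stood at 18.2% in root and 30.9% in leaf. BC1L6 (LOC4343844), a COBRA-like protein, stood at 15.7% in root and 16.8% in leaf.

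ADI1 (LOC4344439), which RefSeq also lists under the name ferredoxin, stood at 28.4% in root and 26.7% in leaf, and RCABP69 (LOC4343583) at 32.7% in root. In leaf RCABP69 gave 631 to 1441 in tZ against 5229 to 6274 in DMSO arrays. In root, both were near the low end, with 10.6 to 95.2 in tZ against 119 to 383 in DMSO arrays for ADI1. Leaf marker genes were not equal across the root groups. CAB2R, a light-harvesting protein gene, averaged 2522 with tZ 120 min, 1226 with tZ 30 min, 5469 with DMSO 120 min and 9713 with DMSO 30 min in root, with SDs of 20.2 to 1927 (n = 3 each). Over the 5 leaf markers, the root group means were 41.5 to 157 for OsrcaA1, 169.7 to 349 for OsrbcS, 81.3 to 136 for LFNR1 and 6.60 to 9.33 for OsGLK2, which was at background in root. The part of this shift in the root values of ADI1 and RCABP69 was not tested.

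**Figure D2:**
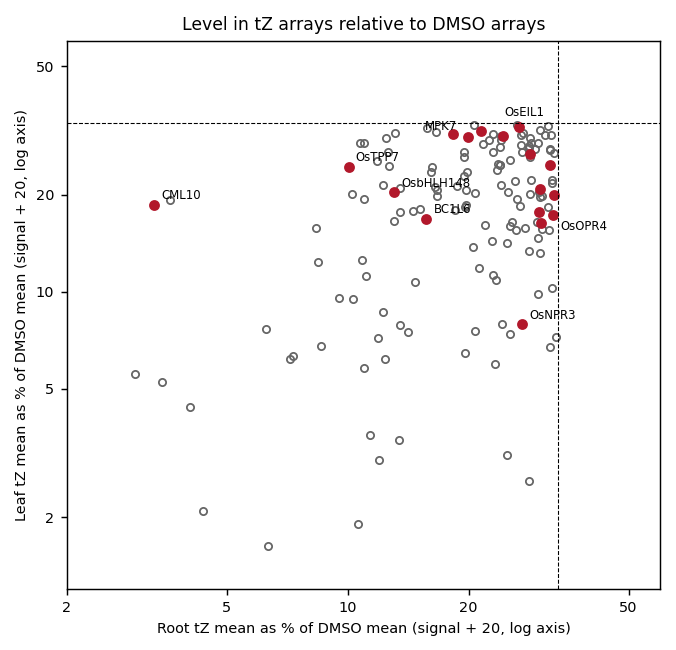
Level in tZ arrays as a percentage of the level in DMSO arrays (means of signal + 20, log axes) for the 149 probe sets, root across and leaf up; filled points are the 17 named genes (8 of them labelled) and dashed lines the limit of the rule. Points spread over 2.95% to 32.9% in root and 1.63% to 32.9% in leaf, with CML10 far to the left and OsNPR3 low.

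Some genes without a symbol stood low in both organs. LOC4330793 stood at 2.95% in root and 5.57% in leaf, and LOC4335417 at 3.44% in root and 5.25% in leaf. The ratio was smaller in leaf than in root for 80 of the 149 probe sets, so neither organ was the lower one throughout.

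The array the rule left out did not choose the probe sets. The root DMSO arrays it is set against did, since the rule held them high, so its place below them is a description. On root tZ 120 min replicate 2, 141 of 149 probe sets (94.6%) were below the lowest of the 6 root DMSO arrays, while 25.0% of all probe sets were. Of the 664 probe sets chosen by root alone, 89.9% were. The rule held the other 5 root tZ arrays low and exempted this one. The array lay above the highest of them for 144 probe sets, a share that was not counted over all probe sets. On the log2 scale its median position was 0.63 of the way from the mean of the other tZ arrays (0) to the mean of the DMSO arrays (1), with quartiles of 0.54 and 0.69. Named genes held the same place. CML10 read 3083 on it, between 234 and 219 on the other tZ 120 min arrays and 5769 to 8303 in DMSO arrays, and OsTPP7 read 6278, against 1129 and 1186 in the other tZ 120 min and 8232 to 12963 in DMSO arrays. With that array kept in the rule, 112 of the 149 stayed.

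**Figure D3:**
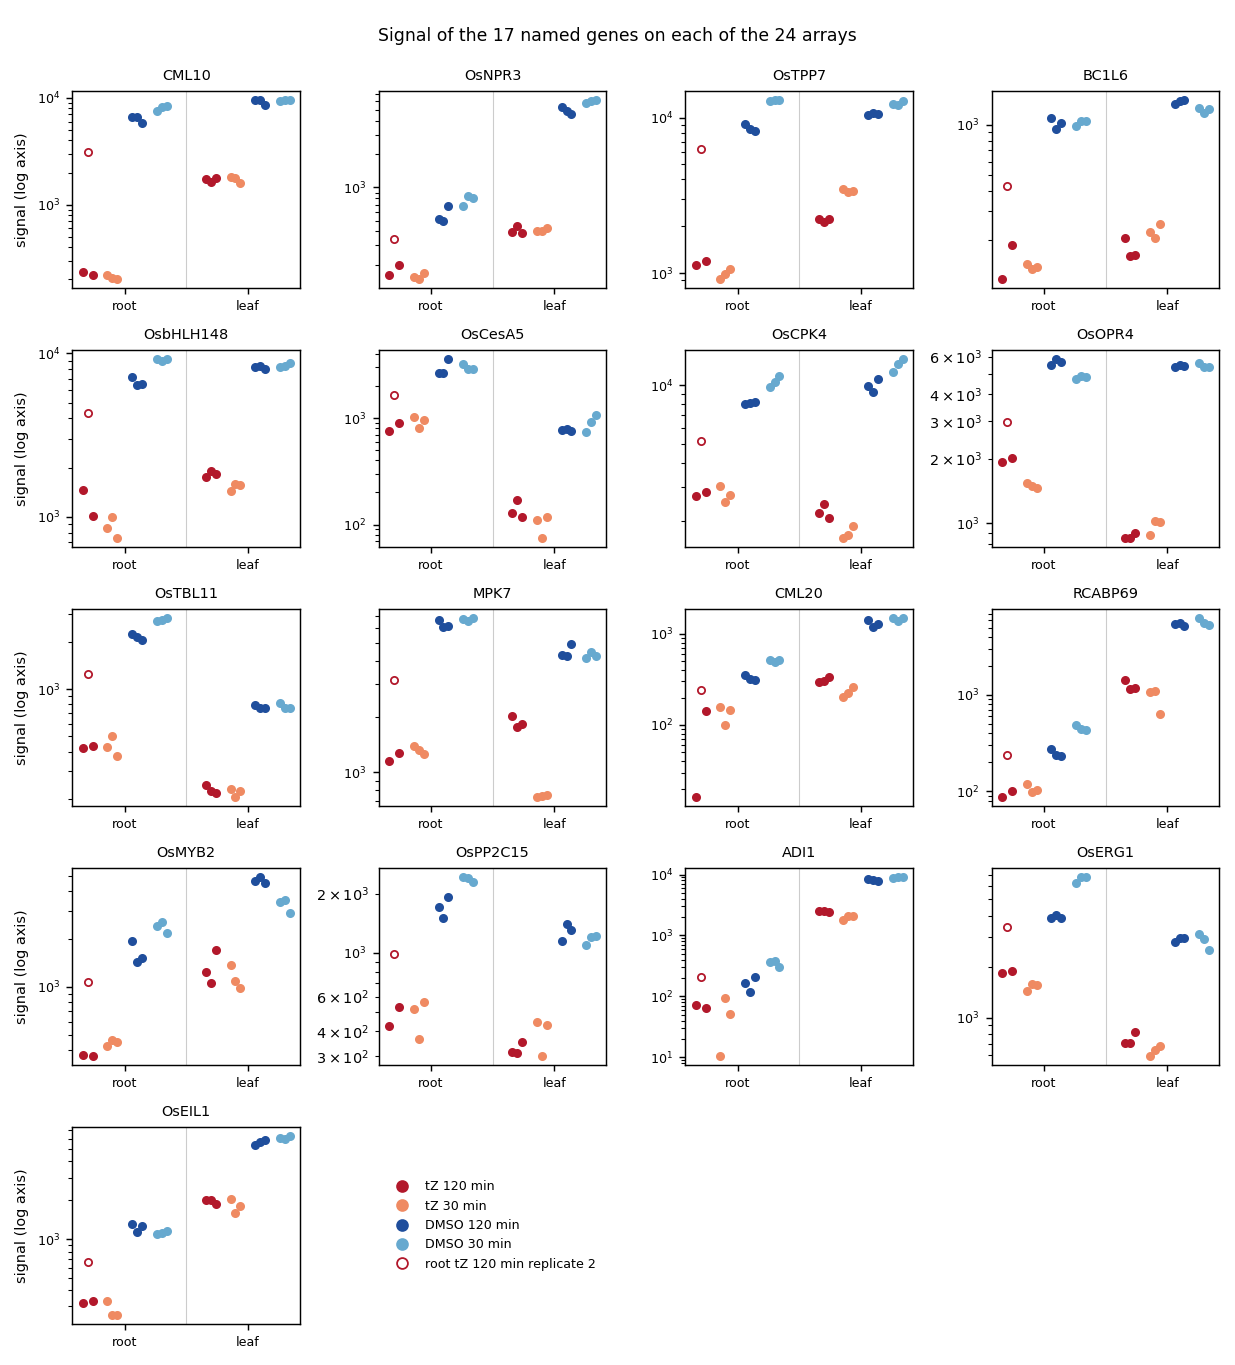
Signal of the 17 named genes on each of the 24 arrays (log axes), with root on the left and leaf on the right of each panel and groups in the order tZ 120 min, tZ 30 min, DMSO 120 min and DMSO 30 min. Filled tZ points lie below all DMSO points in each panel and organ by the rule, and the open point, root tZ 120 min replicate 2, lies above the other root tZ points in all 17 panels and below all root DMSO points in 15, RCABP69 and ADI1 being the exceptions.

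The rule averaged over time, so the time course within each treatment is free of it in part and was tested. Values were compared as log2(signal + 20) with limma over the 34316 brighter probe sets, a change being called at a Benjamini-Hochberg adjusted p under 0.05. In the root fits 148 of the 149 probe sets passed the brightness filter, and in the leaf fits 149. Because the time groups also fed the rule's means and ranges, counts are read beside those of all probe sets.

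With DMSO, most of the probe sets had a lower root signal at 120 min than at 30 min. The median of the 148 was -0.37 on the log2 scale, 128 of them were below 0, and the median of all probe sets tested was 0.02. With all arrays limma called few of these differences, 7 lower and 0 higher at 120 min, against 6.23% of all probe sets called in either direction, 2.98% lower and 3.24% higher, a share near the background. At an unadjusted limma p under 0.05 it was 34 lower and 0 higher, and the share of all probe sets was not counted at that threshold. Leaving out any 1 of the 6 root DMSO arrays gave 1 to 3 calls. Root tZ 120 min replicate 2 adds to the spread used in these tests. Without that array 57 were lower and 1 higher of 149, against 9.11% in either direction, 4.7% lower and 4.41% higher. All 3 DMSO 120 min arrays lay below all 3 DMSO 30 min arrays for 101 of the 149, against 8.48% of all probe sets.

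OsERG1 was the named gene that passed the test with all arrays. It gave 3866, 4034 and 3857 in root with DMSO 120 min, against 6249, 6758 and 6758 with DMSO 30 min. The 2 groups did not overlap, and the change was -0.75 ± 0.16 (SE, limma adjusted p = 0.012). Leaving out 1 array, DMSO 30 min replicate 2, moved that adjusted p to 0.051. Without root tZ 120 min replicate 2 the adjusted p was 1.4e-06.

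Without that tZ array, 9 further named genes passed. OsTPP7 gave 9040.2, 8401 and 8232 with DMSO 120 min against 12720.5, 12888 and 12963 with DMSO 30 min in root, a change of -0.59 ± 0.06 (SE, limma adjusted p = 2e-05). RCABP69 changed by -0.82, OsMYB2 by -0.55, OsPP2C15 by -0.48, OsbHLH148 by -0.45, OsCPK4 by -0.37, OsTBL11 by -0.36 and CML10 by -0.34, with limma adjusted p-values from 0.0029 to 0.038. OsOPR4 went the other way, with 5496, 5849 and 5675 at 120 min against 4706, 4850.1 and 4817 at 30 min, a change of 0.24 ± 0.06 (SE, limma adjusted p = 0.013). The other 7 named genes did not pass under that setting, among them CML20 (-0.59), OsEIL1 (0.13), OsCesA5 (-0.02) and BC1L6 (-0.02). In the root DMSO arrays the leaf marker CAB2R was also lower at 120 min, as given above, and its part in the value of RCABP69 was not tested.

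In leaf the DMSO arrays of the same interval lay closer together. The median change was -0.08, with 7 probe sets lower and 1 higher at 120 min, against 1.4% called in either direction, 0.694% lower and 0.708% higher among all probe sets. The DMSO 120 min arrays all lay below the DMSO 30 min arrays for 46 of 149, against 7.99% of all probe sets. OsTPP7 gave 10355, 10642 and 10522 with DMSO 120 min against 12254, 12071 and 12837 with DMSO 30 min, a change of -0.24 ± 0.05 (SE, limma adjusted p = 0.016). OsCPK4 gave 9892, 9246 and 10757 with DMSO 120 min against 11654, 12908 and 13648 with DMSO 30 min, a change of -0.35 ± 0.08 (SE, limma adjusted p = 0.034). The times did not overlap for either gene. These calls depended on single arrays and on the scaling. Quantile normalization gave 2 higher and 2 lower. Leaving out DMSO 30 min replicate 3 gave 0 calls and an adjusted p of 0.081 for OsTPP7 and 0.15 for OsCPK4 (limma). Leaving out DMSO 120 min replicate 1 or 2 also gave 0 calls, DMSO 120 min replicate 3 gave 1, DMSO 30 min replicates 1 and 2 gave 3 and 4, and tZ 120 min replicate 1 gave 5. OsTPP7 also lost its call without any 1 of the DMSO 120 min arrays, and OsCPK4 without DMSO 30 min replicate 2, DMSO 120 min replicate 1 or 2, or tZ 120 min replicate 1.

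The difference between the organs was tested as well, a comparison added after the values were seen. The DMSO change in leaf minus that in root had a median of 0.28 over the members against -0.01 over all probe sets. With all arrays 2 probe sets passed, OsERG1 and the gene LOC4348206, both higher, against 2.38% in either direction and 1.24% higher, so the share was near the background. Without root tZ 120 min replicate 2 it was 21, all higher, against 3.53% in either direction, 1.99% higher and 1.54% lower, and OsMYB2 (1.06), RCABP69 (0.74) and OsTPP7 (0.35) were among them. For OsERG1 the difference was 0.78 ± 0.20 (SE, limma adjusted p = 0.041). Its leaf signals of 2793, 2948 and 2958 with DMSO 120 min and 3104, 2919.5 and 2496 with DMSO 30 min overlapped, unlike those in root. Its adjusted p was 0.059 to 0.12 without any 1 of the 6 root DMSO arrays, or of the leaf DMSO arrays other than 30 min replicate 1. Each of the 6 root DMSO arrays gave 0 calls when left out, as did 5 of the 6 leaf DMSO arrays, the sixth being DMSO 30 min replicate 1 with 1 call. The other arrays gave 1 to 4 calls, apart from root tZ 120 min replicate 2.

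**Figure D4:**
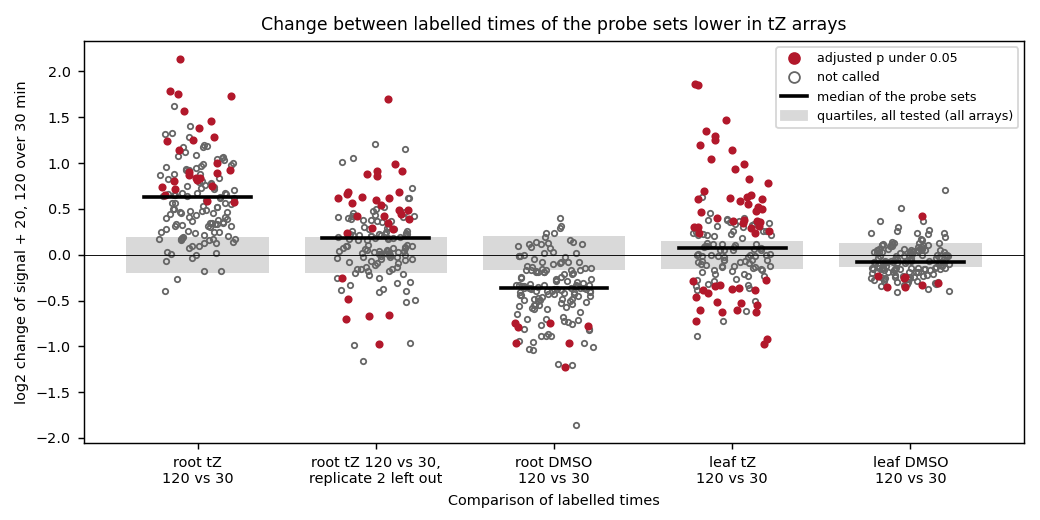
Change in log2(signal + 20) of each probe set at 120 min relative to 30 min, in root tZ (all arrays and with replicate 2 left out), root DMSO, leaf tZ and leaf DMSO arrays. Filled points passed limma at an adjusted p under 0.05, black bars are medians of the probe sets (0.63, 0.18, -0.37, 0.08 and -0.08 from left to right), and grey bands are quartiles of all probe sets tested with all arrays.

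With tZ the course differed by gene, and the leaf data are the firmer. In leaf 38 probe sets were higher and 20 lower at 120 min than at 30 min, against 8.01% in either direction, 3.8% higher and 4.21% lower among all probe sets. The median change was 0.08. The tZ 120 min arrays lay wholly above the tZ 30 min arrays for 46 probe sets and wholly below for 27, against 8.24% and 9.17% of all probe sets.

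MPK7 rose most among the named genes. In leaf it gave 2008, 1764 and 1830.5 with tZ 120 min, against 739, 745 and 758 with tZ 30 min, 4298, 4252 and 4918 with DMSO 120 min and 4144, 4473 and 4255 with DMSO 30 min. Every tZ 120 min array was above every tZ 30 min array, and both stayed below DMSO, where the times overlapped. The tZ change was 1.30 ± 0.07 (SE, limma adjusted p = 1.8e-09), and the change with tZ minus that with DMSO was 1.23 ± 0.09 (SE, limma adjusted p = 6.7e-07).

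CML20 and OsCPK4, of the calcium relays, also rose in leaf with tZ. CML20 gave 296, 302 and 334 with tZ 120 min against 203, 226 and 262 with tZ 30 min, a change of 0.40 ± 0.10 (SE, limma adjusted p = 0.015). OsCPK4 gave 2211, 2435 and 2067 with tZ 120 min against 1641, 1699 and 1880.2 with tZ 30 min, a change of 0.36 ± 0.08 (SE, limma adjusted p = 0.0068). Neither pair of groups overlapped. Leaving out tZ 30 min replicate 1 or tZ 120 min replicate 3 moved the adjusted p of CML20 to 0.064 and 0.069.

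ADI1 rose by 0.30 ± 0.06 and OsbHLH148 by 0.26 ± 0.05 (SE, limma adjusted p = 0.0032 and 0.005). OsTPP7 fell instead. It gave 2217, 2124 and 2219 with tZ 120 min against 3469, 3304 and 3349 with tZ 30 min in leaf, a change of -0.62 ± 0.04 (SE, limma adjusted p = 1.2e-07). The 3 tZ 120 min arrays lay below all 3 tZ 30 min arrays, as they did with DMSO, where the change was smaller. BC1L6 changed by -0.34 at an adjusted p just under the threshold, and the call was lost under 17 alternatives. Of these, 10 left out 1 array, namely each of the 6 leaf DMSO arrays, tZ 30 min replicate 1 or 3, and tZ 120 min replicate 2 or 3. Among genes without a symbol, LOC9269725 rose, with 80.4, 86.8 and 83.2 with tZ 120 min against at most 11.9 with tZ 30 min, where it was under the array medians. Of the 58 called, 1, called lower, had tZ means under the highest leaf array median (57.0) at both times.

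The difference of the leaf time effects, tZ minus DMSO, was called for 36 probe sets as higher and 7 as lower, against 3.83% in either direction, 2.03% higher and 1.8% lower. Named genes with a higher change with tZ were MPK7, OsCPK4 (0.71 ± 0.11), CML20 (0.55 ± 0.14), ADI1 (0.45 ± 0.08) and OsbHLH148 (0.29 ± 0.07), each ± SE. OsTPP7 had a lower one, -0.38 ± 0.06 (SE, limma adjusted p = 0.0017). For CML20 the adjusted p was 0.034 and moved to between 0.056 and 0.11 without any 1 of 8 leaf arrays, which were DMSO 30 min replicates 1 and 3, DMSO 120 min replicates 2 and 3, tZ 30 min replicates 1 and 2, and tZ 120 min replicates 2 and 3.

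In root with tZ, 26 probe sets were called at 120 min by limma, all of them higher, against 6.74% in either direction, 3.65% higher and 3.09% lower, and the median change was 0.63. Without replicate 2 of that group the counts were 25 higher and 6 lower, against 6.22% in either direction, 3.16% higher and 3.06% lower, and the median was 0.18. With that array left out, the tZ 120 min arrays lay wholly above the tZ 30 min arrays for 46 probe sets and wholly below for 12, against 13.6% and 15.2% of all probe sets. Leaving out tZ 120 min replicate 1 gave 47 calls and replicate 3 gave 49, and leaving out tZ 30 min replicates 1, 2 and 3 gave 14, 16 and 14.

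OsOPR4 gave 1924, 2984 and 2008 in root with tZ 120 min, against 1545, 1489 and 1458 with tZ 30 min. All 3 later arrays were higher, and the change was 0.59 ± 0.12 with all arrays and 0.39 ± 0.07 without replicate 2 (SE, limma adjusted p = 0.0064 and 0.0013). OsERG1 gave 1827, 3443 and 1895 with tZ 120 min against 1431, 1581 and 1559 with tZ 30 min, a change of 0.58 ± 0.16 with all arrays and 0.29 ± 0.07 without replicate 2 (SE, limma adjusted p = 0.046 and 0.021). Its adjusted p was 0.058 to 0.13 without any 1 of the 6 root DMSO or 3 root tZ 30 min arrays. OsbHLH148 passed without replicate 2, at 0.48 ± 0.13 (SE, limma adjusted p = 0.034).

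The difference of the root time effects, tZ minus DMSO, was called for 26 probe sets, all higher, against 4.6% in either direction and 2.6% higher, with a median of 1.00. Without replicate 2 it was 59 higher and 1 lower, against 5.3% in either direction, 3.03% higher and 2.27% lower, with a median of 0.58. The count was 51 without tZ 120 min replicate 1, 54 without tZ 120 min replicate 3, and between 8 and 15 when any other single root array was left out. OsERG1 was the named gene called with all arrays, at 1.33 ± 0.23 (SE, limma adjusted p = 0.0044), and it was 1.03 ± 0.09 without replicate 2 (SE, limma adjusted p = 1e-05). OsbHLH148 (0.93), OsTPP7 (0.81) and CML10 (0.44) passed without that array. The tZ level as a share of DMSO, over the kept arrays, had a median of 26.2% at 120 min and 18.9% at 30 min in root, and of 20.9% at 120 min and 18.3% at 30 min in leaf.

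The rule did not compare organs, so the level in leaf DMSO arrays was set against that in root DMSO arrays. In this comparison 63 probe sets were higher and 46 lower in leaf, against 72.4% called in either direction, 31.4% higher and 41.0% lower among all probe sets, so that the total share was near the background. The median was 0.23, with -0.17 over all probe sets. Setting every array to 1 common median moved the value over all probe sets to 0.28 and the split to 91 higher and 29 lower. Without root tZ 120 min replicate 2 the counts were 73 higher and 52 lower, against 72.9%, 31.8% and 41.1%.

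ADI1 was the named gene with the greatest excess in leaf, 7782, 8467 and 9062 as lowest, median and highest of 6 leaf DMSO arrays against 119, 255 and 383 in root, a log2 difference of 5.04 ± 0.23 (SE, limma adjusted p = 5.1e-16). RCABP69 followed at 3.97 ± 0.16, OsNPR3 at 3.01 ± 0.11 and OsEIL1 at 2.30 ± 0.11 (SE, limma adjusted p = 2.5e-17, 1.5e-17 and 2.8e-15). CML20 was higher in leaf by 1.70, OsMYB2 by 0.99 and OsCPK4 by 0.29. Of these, OsCPK4 alone overlapped between organs in DMSO arrays.

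OsCesA5 and OsTBL11, of the 3 named cell wall genes, were lower in leaf. OsCesA5 ranged over 737, 784 and 1060.5 (lowest, median and highest) in leaf DMSO arrays against 2661, 2891 and 3588 in root DMSO arrays, a log2 difference of -1.81 ± 0.14 (SE, limma adjusted p = 3.2e-11). OsTBL11 differed by -1.64 ± 0.16, OsERG1 by -0.82 ± 0.10, OsPP2C15 by -0.70 ± 0.14 and MPK7 by -0.57 ± 0.14, each ± SE and each lower in leaf. CML10, OsTPP7, OsbHLH148, OsOPR4 and BC1L6 were not called with all arrays, and CML10 (0.39), BC1L6 (0.33) and OsTPP7 (0.12) passed without root tZ 120 min replicate 2. Among genes without a symbol, LOC107277838 had a log2 difference of 6.77 on a probe set with an x suffix, with 11369.6 to 13173 in leaf against 71.2 to 163 in root DMSO arrays, and LOC4352198 one of -3.49.

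**Figure D5:**
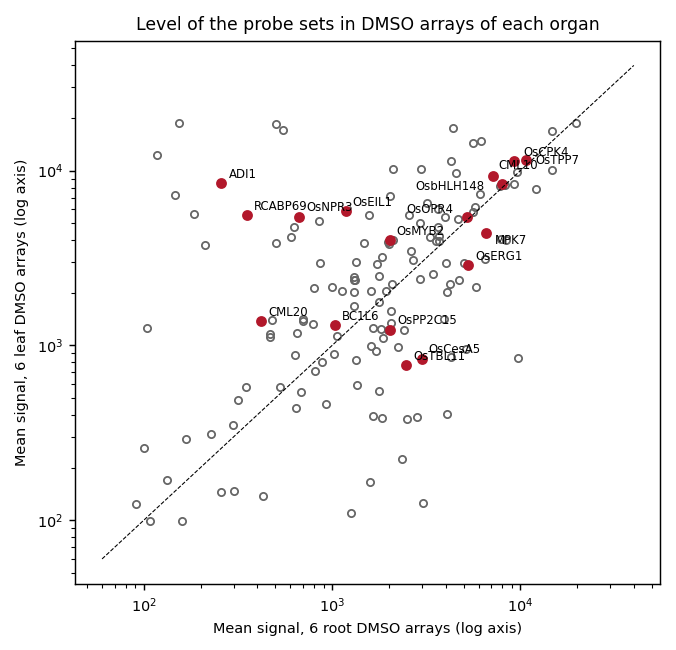
Mean signal of the 149 probe sets over the 6 leaf DMSO arrays (up) and the 6 root DMSO arrays (across), on log axes, with named genes filled and the dashed line marking equal signal. ADI1, RCABP69, OsNPR3 and OsEIL1 lie above the line, OsCesA5 and OsTBL11 below it, and OsTPP7, OsCPK4 and OsbHLH148 near it at high signal.

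Gene length was a feature the rule did not use. The genomic span in RefSeq had a median of 2166 bp over the 101 genes, against 3534.5 bp over 17738 protein-coding genes on the array. A span under 2000 bp was found for 44 of the 101 (43.6%), against 21.2% of all. The genes compared were not matched for signal, and the part of signal in this difference was not tested. ADI1 (944 bp), CML10 (1058 bp), CML20 (1062 bp) and OsERG1 (1485 bp) are among the short ones, while OsbHLH148 spans 10217 bp. Neighbouring genes were few, with 3 pairs that had at most 2 genes between them, 1 of which joins CML20 and LOC4330641.

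The gene families of the named genes were counted by symbol, among the 2458 genes that carry one of 17905 on the array. Of the 101 genes here only the 17 with a symbol could be placed, and families may hold further genes without one. Since the rule took 0.269% of all probe sets, few members of any family could pass it, and the counts are a description. Of 50 genes named as calcium sensors or calcium-dependent kinases on the array, 3 are among the 149 probe sets (CML10, CML20 and OsCPK4). Of the genes so named, 44 were tested in leaf with tZ, and 5 rose and 8 fell between 30 and 120 min. Their median was -0.06, and among all probe sets 3.8% were higher and 4.21% lower. With DMSO, 1 of the 44, OsCPK4, was called in leaf, as lower, against 0.694% of all probe sets. Of 9 trehalose phosphate phosphatases 1 is a member, OsTPP7, and in leaf with tZ 2 of 8 tested were called, both lower and one of them OsTPP7 itself. MAP kinases gave 1 of 16 (MPK7), with 2 of 16 called in leaf with tZ, both higher and 1 of them MPK7 itself. PP2C phosphatases gave 1 of 55, genes with LOX, AOC or OPR symbols 1 of 14, bHLH factors 1 of 12 and MYB factors 1 of 10. No member with a symbol came from 7 AP2/ERF genes other than DREB1, 8 NAC, 4 C2H2 or 20 heat shock factor genes. The same held for 26 HD-Zip, 7 U-box ligase and 2 gibberellin oxidase genes. DREB1B, DREB1E and DREB1G, which passed the numbers and were set aside by name, also carry ERF symbols.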

How the data were processed

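Rice RNA from 24 samples was measured on a 1-colour array. The RNA was column-purified and converted into biotinylated cRNA, per the labels' protocols. What the authors deposited is a processed linear intensity, 1 per probe set and array. Leaving out 2% at each end, the mean intensity was 500.07 to 500.08 on each array, so the deposited values had been scaled, and the algorithm is not given in the sources used here. Of 57381 probe sets, 187 controls were left out. Median signals were 68.2 to 86.7 on root and 47.6 to 57.0 on leaf arrays, and the number of arrays limits the precision.

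Values became log2(signal + 20) with no further normalization, so fold changes of dim genes are understated. Probe sets above the 40th percentile of mean log2 signal in each fit entered limma 3.58.1, run in R 4.3.3 (lmFit, eBayes with an intensity trend, two-sided, Benjamini-Hochberg), per organ with all 12 arrays, or with all 24 for contrasts between organs. The contrast of tZ with DMSO was not tested, as the rule used it. The fits were tested on simulated data. The 149 probe sets, the named genes and the gene lists were chosen with earlier results of these data known. Named genes are members whose probe set stands for exactly 1 gene that carries a symbol, with the brightest probe set per gene, and other loci were named after their values were seen. Of 57194 probe sets, 22436 have 1 gene, 95 several and 34663 none in the array's annotation. Names come from the annotation's gene IDs through RefSeq synonyms, and the array's build is not given, so no coordinates are printed. Alternatives were the pseudocount, filter, normalization, trend, groups in the fit, replicate block and each array left out.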

Additional observations from a re-analysis of the deposited data

Results flagged for a closer look

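Time effects differed between treatments or organs for the following results, each by limma's test of the difference itself. In root, tZ minus DMSO passed for 26 probe sets, against 4.6% of all probe sets, and for OsERG1 (1.33 on the log2 scale). In leaf it passed for 43 probe sets, against 3.83% of all, among them MPK7 (1.23), OsCPK4 (0.71), CML20 (0.55) and OsTPP7 (-0.38). Leaf minus root within DMSO passed for 2 of 149 probe sets, against 2.38% of all, a share near the background, and OsERG1 (0.78) was one. No formal screen for outlying samples was run on groups of 3 arrays, and root tZ 120 min replicate 2 is described above from its values.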

How the results depend on the processing

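In each comparison, up to 3 named genes that rose most and up to 3 that fell most were followed, among those called with all arrays. None of these 22 changes turned its sign under an alternative. Of their alternatives, 441 kept the call and 78 lost it. Other called changes of named genes were not followed in this count. The rule gave 481 probe sets at 2 times in place of 3 times and 70 at 4 times, and 108 to 170 under its other settings. The counts called among the 149 moved as follows, given without the share of all probe sets under each setting. Root DMSO times gave 11 with pseudocount 80, 3 with no filter, 0 with no intensity trend and 78 with only the groups compared. Leaf DMSO times gave 5 with no filter, 4 after quantile normalization, 0 with arrays shifted to the same median, 0 with no trend and 23 with only the groups compared. Root tZ times gave 16 with no filter, 6 with no trend and 9 with only the groups compared, and leaf tZ times gave 36 with only the groups compared. The root difference gave 13 with no filter and 0 with no trend, and the leaf difference 27 with shifted medians and 22 with no trend. The DMSO difference between organs gave 1 with pseudocount 5, 0 with no filter, 0 with no trend and 42 with only the groups compared. The causes were not tested. With each array left out in turn, counts ranged from 1 to 58 for root DMSO times, 0 to 10 for leaf DMSO, 14 to 49 for root tZ, 49 to 59 for leaf tZ, 8 to 60 for the root and 31 to 44 for the leaf difference, 102 to 125 for leaf against root and 0 to 21 for the DMSO difference between organs. No shared effect of the replicate number was seen. Same-number correlations of values centred within groups were -0.05 to 0.07 in root and -0.04 to 0.02 in leaf. Those of different numbers were -0.08 to 0.09 in root and -0.04 to 0.05 in leaf. These values cannot tell whether the samples were paired by design. With the number as a replicate block, leaf DMSO times gave 5 calls, root DMSO 6, root tZ 31, leaf tZ 58, the root difference 29, the leaf difference 37, leaf against root 109 and the DMSO organ difference 2. Shifted medians moved the median of all probe sets from -0.01 to 0.10 for that last difference and from -0.03 to 0.10 for the root one.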

Other observations

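The mirror of the rule, with tZ at least 3 times DMSO in both organs, took 123 probe sets. In leaf with tZ, 5 of them were higher and 53 lower at 120 min than at 30 min by limma, with a median of -0.37, against 3.8% higher and 4.21% lower among all probe sets. In leaf DMSO arrays 101 of the 123 were lower than in root and 16 higher, against 41.0% lower and 31.4% higher among all probe sets.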
